A study of Mus musculus with 6 samples.

Results

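Fatty acid oxidation was followed through 38 genes of the mitochondrial and peroxisomal pathways, out of 19940 genes measured by RNA sequencing in mouse pancreatic islets. The genes were chosen by symbol and each was found on 1 line of the table. They comprise 18 genes of the mitochondrial route, 8 enzymes and importers of peroxisomes, 5 peroxisome biogenesis genes, 4 acyl-CoA synthetases, 2 enzymes that work in both organelles and the endoplasmic reticulum protein gene Cpt1c. The islets, hand-picked after enzyme digestion of the pancreas, came from C57BL6/J mice, either pregnant at gestational day 14.5 (3 samples) or nonpregnant littermates (3 samples). Animals number 5 a group in the design text, and nothing in the labels says whether a sample was 1 animal. The authors' deposited table gives 1 mean read count per gene and group, so no value per library and no spread between libraries can be shown.

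Fatty acids are burned by shortening their chain from the carboxyl end, in rounds of dehydrogenation, hydration, a further dehydrogenation and thiolysis. Mitochondria take up long chains as carnitine esters through the carnitine shuttle and pass the electrons to the respiratory chain. Peroxisomes import very long, branched or dicarboxylic chains directly, begin each round with an oxidase that makes hydrogen peroxide, and hand shortened chains on to mitochondria. In beta cells, the insulin-secreting cells of the islet, entry of fatty acids into mitochondria is held back by malonyl-CoA when glucose is high, and the dehydrogenase HADH is also known as a brake on insulin secretion.

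Among the 38 genes, 8 rose in pregnancy and 0 fell, where a call means an adjusted p below 0.05 by the authors' own test in the authors' deposited table. The software of that test is not given, and any spread between these samples that its p-values measure may be technical. The largest change was that of Ehhadh, which encodes the bifunctional enzyme that carries out hydration and dehydrogenation in peroxisomes, and which rose 6.27-fold in the authors' deposited table. The other 7 rises were of 1.28-fold to 1.5-fold: Cpt1a and Slc25a20 of the carnitine shuttle, Acaa2, Hadhb and Etfb of the mitochondrial spiral, and the acyl-CoA synthetase genes Acsl1 and Acsl5. The share of genes that rose was 21.1%, against 7.57% of all genes of the table (4.15% fell). The 38 genes were chosen with earlier results of these data known, which can raise their share. The difference in share was therefore not tested, and no conclusion about the pathway is drawn from it. Of the 38, 37 averaged 1000 reads or more, and among the 8796 genes of the table at that level, a background chosen after seeing the data, 9.80% rose and 6.43% fell. At an unadjusted p below 0.05, 14 of the 38 were higher and 1 was lower, where 12.4% and 9.78% of all genes were.

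The authors' mean reads over all genes summed to 84493872 in nonpregnant and 87654449 in pregnant islets. Islet identity was plain: 10 endocrine markers took 22.7% and 24.9% of all reads, and of the hormone genes the lowest, Ppy, had 277190 and 241043 mean reads. Of the 10, Ins1 rose 1.55-fold (the authors' deposited table, with adjusted p = 1.61e-08) and 0 fell, with Gcg at 0.72 (the authors' deposited table, with adjusted p = 0.0772). The part of these cells in the values of the 38 genes was not tested. Acinar markers, from the digestive-enzyme cells around islets, moved with pregnancy: 14 of 16 measured markers rose and 0 fell. Their summed mean reads went from 98299 to 1222550 and their share of all reads from 0.116% to 1.39%, with Amy2a5 listed at 0 in nonpregnant islets and Ptf1a, the acinar transcription factor, at 2 and 67 mean reads. The part of acinar RNA in the rises of Ehhadh and the other 7 genes was not tested. Adipocyte markers, from a cell type rich in fatty acid enzymes, summed to only 3 and 17 mean reads. Of 6 endothelial and 7 fibroblast markers 0 passed, and 1 of 6 duct markers (Muc1, 2.64-fold) and 1 of 7 macrophage markers (Lyz2, 1.32-fold) rose in the authors' deposited table. In whole islets a larger number of cells of a type and more RNA per cell cannot be told apart.

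The median log2 ratio of pregnant over nonpregnant was 0.23 over the 18 mitochondrial genes and 0.17 over the 8 peroxisomal genes, against -0.02 over all genes of the table. All 18 mitochondrial log2 ratios lay above 0 as deposited, from 0.03 to 0.58, and 5 of the 18 rose. Recomputed from the read means scaled to each group's total, the medians were 0.14 and 0.08, and that of all genes with at least 10 mean reads was -0.10 (-0.01 as deposited). This recalculation makes 2 changes: the means themselves give log2 ratios 0.04 below the deposited ones, and the scaling takes off a further 0.05. It left 16 of the 18 mitochondrial genes above 0, and 1 of those lost, Echs1, was already at or below 0 by the unscaled means. Of the 8 peroxisomal genes 1 rose, 5 ratios lay above 0 and 3 below. Whether the mitochondrial and the peroxisomal genes differ was not tested, because the table holds no value per library. Over all 38 genes, 31 log2 ratios lay above 0 and 7 below, or 26 and 12 in that recalculation. The plot of log2 ratios by gene shows this pattern: a narrow band of mitochondrial values to the right of 0, and in the peroxisomal block a single point far from the rest.

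**Figure D1:**
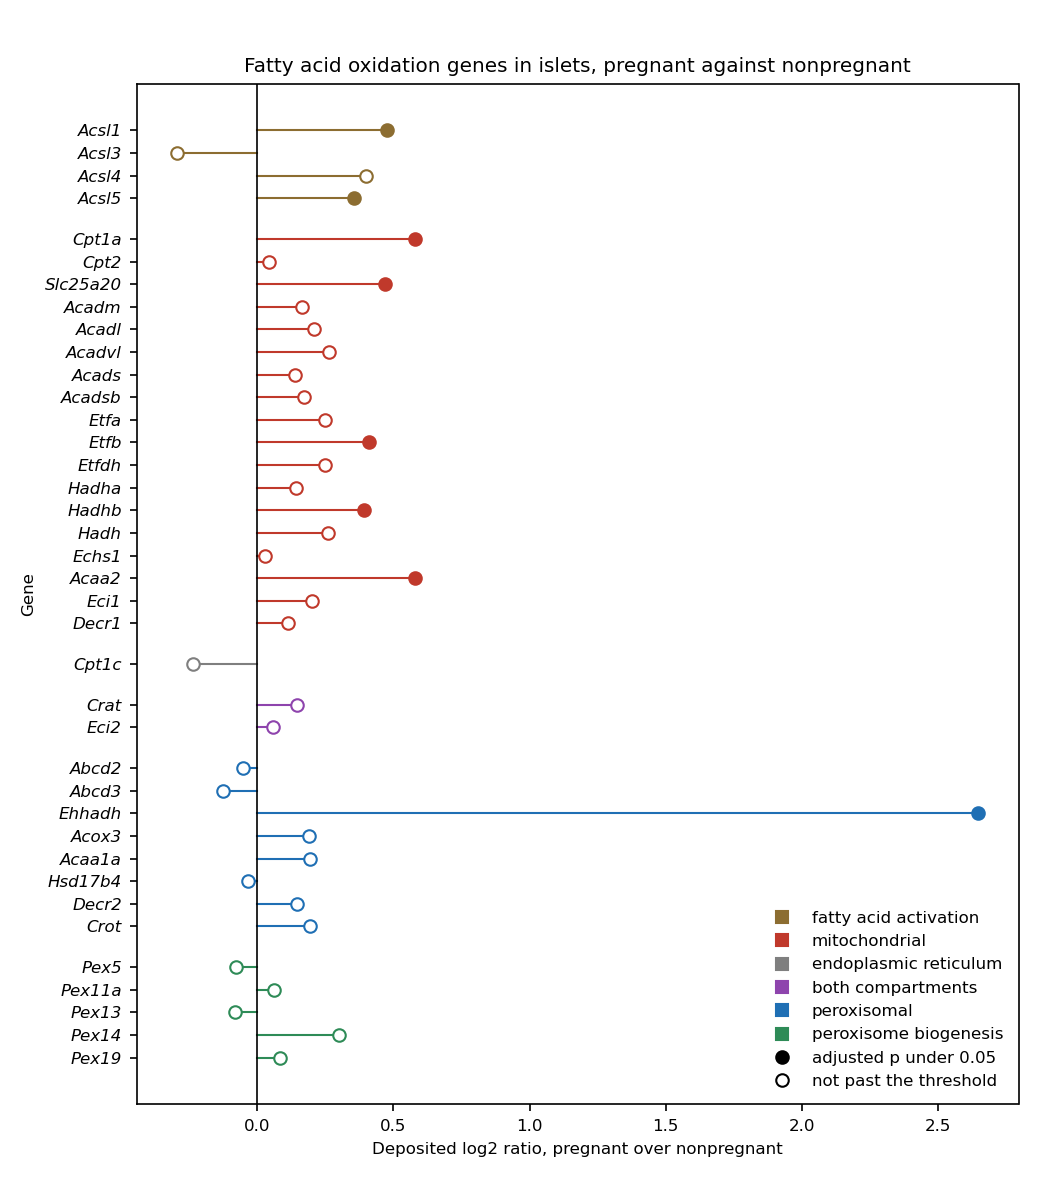
Deposited log2 ratio of pregnant over nonpregnant (horizontal axis) for each of the 38 genes (vertical axis), coloured by compartment, with filled points for an adjusted p under 0.05 and open points for the rest; there are no error bars because the table holds group means. The 18 mitochondrial points lie between 0.03 and 0.58, and Ehhadh stands alone at 2.65.

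Ehhadh (ENSMUSG00000022853) is a minus-strand gene of chromosome 16, spanning 21761287 to 21787807 in GRCm38 with GENCODE M21, the build and annotation used throughout. The 250 bases before its RefSeq start are shown because they are the promoter of the gene with the largest change, in lower case with no capitals because neither motif searched (described further on) was found in them.
Ehhadh promoter, GRCm38.p6, chr16:21787835-21788084, minus strand: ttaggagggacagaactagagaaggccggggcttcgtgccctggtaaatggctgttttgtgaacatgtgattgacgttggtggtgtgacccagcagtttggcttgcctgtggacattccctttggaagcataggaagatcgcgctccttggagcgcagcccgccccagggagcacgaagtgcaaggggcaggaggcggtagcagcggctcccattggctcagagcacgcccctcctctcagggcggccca

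The authors' mean for Ehhadh was 1596 reads in nonpregnant and 9763 reads in pregnant islets. The adjusted p was 2.08e-32 in the authors' deposited table. By adjusted p Ehhadh ranked 48 among all 19940 genes. By fold it ranked 47 among the 8796 genes averaging 1000 reads or more. Per kb of annotated exon, a scale that allows for the length of a gene, its level went from 535.4 to 3275 mean reads. That moved Ehhadh from rank 6 to rank 1 among the 8 peroxisomal genes, and from the 69.8 to the 95.6 percentile of all genes with an annotated length. Hsd17b4, the other peroxisomal bifunctional enzyme, which handles branched chains and bile acid precursors, had authors' means of 3969 and 3787 reads in nonpregnant and pregnant islets, a ratio of 0.98 (the authors' deposited table, with adjusted p = 0.980). The level of Ehhadh per kb was 0.459 times that of Hsd17b4 in nonpregnant islets and 2.94 times in pregnant islets.

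The remaining peroxisomal genes did not pass. Acox3, an oxidase of branched chains, stood at 1961 and 2185 mean reads, a ratio of 1.14 (the authors' deposited table, with adjusted p = 0.335). The thiolase gene Acaa1a had 4445 mean reads in nonpregnant and 4958 in pregnant islets, also at 1.14 (the authors' deposited table, with adjusted p = 0.343). Its close paralog Acaa1b was listed at 22 and 27 mean reads, and reads could be split between the pair. Abcd3, the membrane importer of branched and dicarboxylic acyl-CoA, averaged 22292 reads in nonpregnant and 19956 in pregnant islets, and in nonpregnant islets it was the most abundant peroxisomal gene per kb (3381 mean reads per kb). Its ratio was 0.92 (the authors' deposited table, with adjusted p = 0.561). Abcd2, a related importer of very long chains, was the lowest of the 38 at 354 and 334 mean reads (ratio 0.97, adjusted p = 0.980, in the authors' deposited table). Decr2, the peroxisomal dienoyl-CoA reductase for unsaturated chains, was at 1.11, and Crot, which makes the carnitine esters of medium chains that leave peroxisomes, was at 1.14 in the authors' deposited table. The summed level of the group turned on Ehhadh. The 8 peroxisomal genes summed to 40452 mean reads in nonpregnant and 47391 in pregnant islets (ratio 1.17), and without Ehhadh to 38856 and 37628 (ratio 0.968). Summed per kb, the 8 genes stood at 7932 and 10544 mean reads per kb, and without Ehhadh at 7397 and 7269.

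Peroxisome biogenesis genes had a median log2 ratio of 0.06, and 0 of 5 passed. Pex14, part of the docking complex for imported proteins, had the highest ratio of them, 1.23 (the authors' deposited table, with adjusted p = 0.0804). Its means were 1844 reads in nonpregnant and 2215 in pregnant islets. Exons of Pex14 overlap those of Gm17029 on the opposite strand by 1776 bases, and without strand in the counting the reads of such a pair cannot be told apart. Of the 38 genes 14 have such an overlap of some length. Pex5, the receptor of the peroxisomal import signal, and Pex13, its partner at the membrane, stood at 0.95 and 0.94 by the authors' deposited table. Pex19, the chaperone of peroxisomal membrane proteins, and Pex11a, which acts in peroxisome division, stood at 1.06 and 1.04 by the authors' deposited table. The adjusted p of these last 4 genes ran from 0.804 to 0.906, and the 5 genes summed to 14697 and 14769 mean reads in nonpregnant and pregnant islets.

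Of the 3 genes of the mitochondrial carnitine shuttle, 2 rose. Cpt1a (ENSMUSG00000024900, plus strand of chromosome 19 at 3322334 to 3385733) encodes the outer-membrane enzyme that makes long-chain acylcarnitine and is the step inhibited by malonyl-CoA. Its authors' mean was 3895 reads in nonpregnant and 5686 in pregnant islets, a 1.5-fold rise (the authors' deposited table, with adjusted p = 2.25e-06). Slc25a20 (ENSMUSG00000032602, plus strand of chromosome 9 at 108662088 to 108684641), the inner-membrane carrier that exchanges acylcarnitine for carnitine, went from 1119 to 1513 mean reads and rose 1.38-fold (the authors' deposited table, with adjusted p = 0.0021). Cpt2, which reforms acyl-CoA inside mitochondria, had nearly equal means of 4206 and 4232 reads, a ratio of 1.03 (the authors' deposited table, with adjusted p = 0.950). Per kb, Cpt1a stood at 0.290 times the level of Cpt2 in nonpregnant islets and at 0.420 times in pregnant islets. Cpt1c, the brain-type relative that resides in the endoplasmic reticulum, went the other way without passing, from 1357 to 1122 mean reads (ratio 0.85, adjusted p = 0.229, in the authors' deposited table). Cpt1b, the muscle form, was rare, with 71 mean reads in nonpregnant and 35 in pregnant islets (adjusted p = 0.0561 in the authors' deposited table).

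The 5 acyl-CoA dehydrogenases, which start each mitochondrial round, had ratios in a narrow range and 0 of 5 passed. Acadvl, for very long chains, stood at 4871 and 5702 mean reads with a ratio of 1.2 (the authors' deposited table, with adjusted p = 0.0898). Acadsb, for branched short chains, averaged 10440 and 11467 reads with a ratio of 1.13 (the authors' deposited table, with adjusted p = 0.356). Acadl, for long chains, Acadm, for medium chains, and Acads, for short chains, had ratios of 1.15, 1.12 and 1.1 by the authors' deposited table. Per kb the order in nonpregnant islets was Acadvl (1813 mean reads per kb), Acadl (1614), Acadsb (1454), Acadm (487.9) and Acads (483.9), and it was the same in pregnant islets. Acadvl and Dvl2 share 1151 bases of exon on opposite strands, with the same limit as for Pex14.

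The electrons of these dehydrogenases pass through the electron transfer flavoprotein, whose subunit genes are Etfa and Etfb, to its oxidoreductase, encoded by Etfdh. Etfb (ENSMUSG00000004610, plus strand of chromosome 7 at 43444083 to 43457800) rose from 3565 to 4621 mean reads, 1.33-fold (the authors' deposited table, with adjusted p = 0.00261). Etfa was at 4354 and 5050 mean reads and Etfdh at 4390 and 5091, each at a ratio of 1.19 with an adjusted p of 0.118 in the authors' deposited table. All 3 genes therefore had a higher pregnant mean, with 1 past the threshold. Etfb shares 678 bases of exon with Gm45233 and Mir7051 on its own strand, so its level is uncertain.

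The later steps of the spiral included 2 rises among 5 genes. Acaa2 (ENSMUSG00000036880, plus strand of chromosome 18 at 74779197 to 74806208), the mitochondrial thiolase of medium chains, went from 1566 to 2287 mean reads, a 1.5-fold rise (the authors' deposited table, with adjusted p = 1.69e-05). Hadhb (ENSMUSG00000059447, plus strand of chromosome 5 at 30155248 to 30184593), the thiolase subunit of the trifunctional protein, rose 1.31-fold, from 9799 to 12545 mean reads (the authors' deposited table, with adjusted p = 0.00264). Hadha, which encodes the other subunit of the same complex, was at 10119 and 10913 mean reads, a ratio of 1.1 (the authors' deposited table, with adjusted p = 0.470). Deposited ratios run above the quotient of the printed means by a factor of 1.02, measured over 10102 genes. Whether Hadhb and Hadha changed by different amounts was not tested. Echs1, the short-chain hydratase, had means of 2897 and 2886 reads and a ratio of 1.02 (the authors' deposited table, with adjusted p = 0.980). The isomerase gene Eci1 and the mitochondrial dienoyl-CoA reductase gene Decr1, which prepare unsaturated chains, were at 1.15 and 1.08 without passing in the authors' deposited table. Eci2 and Crat, whose enzymes work in mitochondria and peroxisomes, stood at 1.04 and 1.11 by the authors' deposited table (adjusted p = 0.893 and 0.552).

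Hadh, the short-chain hydroxyacyl-CoA dehydrogenase, was by far the most abundant of the 38 genes. Its authors' mean was 60133 reads in nonpregnant and 70236 in pregnant islets, 29.1% and 29.4% of the reads of all 38 genes. Per kb it reached 12082 and 14112 mean reads, the 99.3 percentile of all genes in both groups. Its ratio of 1.2 did not pass (the authors' deposited table, with adjusted p = 0.0738). In nonpregnant islets the next levels per kb were those of Abcd3 (3381), Etfb (3063) and Etfa (2373), and in pregnant islets those of Etfb (3970), Ehhadh (3275) and Abcd3 (3027). Since there is no spread between libraries, neighbours in this order cannot be told apart. The plot of levels per kb shows Hadh far to the right in both groups, and Ehhadh is the 1 gene of the 38 with a fold of at least 2.

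**Figure D2:**
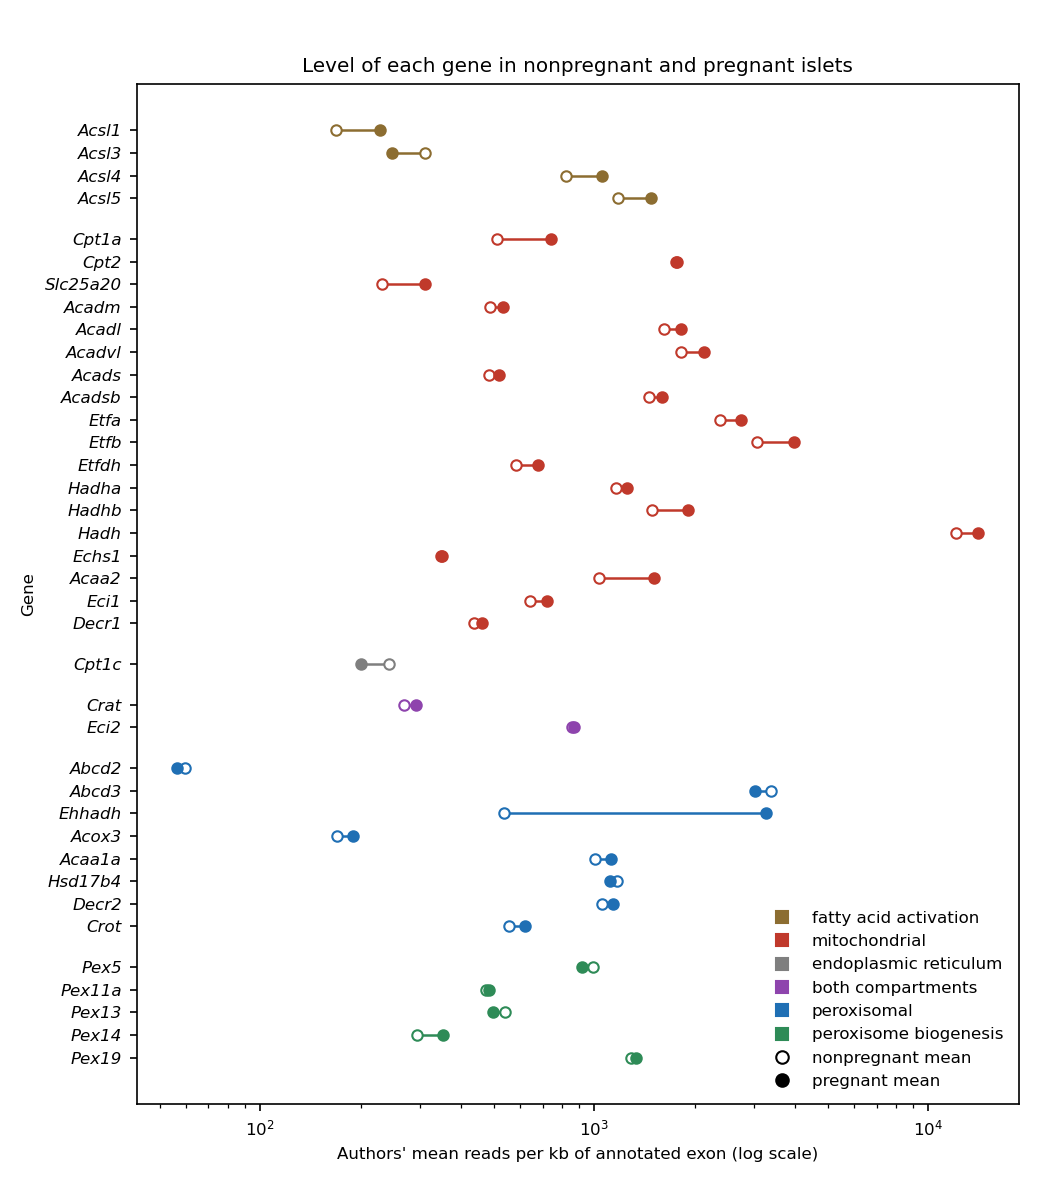
Authors' mean reads per kb of annotated exon on a log scale (horizontal axis) for the 38 genes (vertical axis), with open points for nonpregnant and filled points for pregnant islets, coloured by compartment; there are no error bars because the table holds group means. Ehhadh moves from 535.4 to 3275, and Hadh is the highest in both groups.

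Long-chain fatty acids are joined to coenzyme A before either route by the long-chain acyl-CoA synthetases. Acsl1 (ENSMUSG00000018796, plus strand of chromosome 8 at 46471037 to 46536051) rose from 1765 to 2396 mean reads, 1.39-fold (the authors' deposited table, with adjusted p = 6.90e-04). Acsl5 (ENSMUSG00000024981, plus strand of chromosome 19 at 55251938 to 55297720) rose from 5746 to 7164 mean reads, 1.28-fold (the authors' deposited table, with adjusted p = 0.0102). Acsl4, which prefers arachidonic acid, was at 4444 and 5721 mean reads, a ratio of 1.32 in the authors' deposited table that did not pass (adjusted p = 0.0748). Acsl3, a synthetase of the endoplasmic reticulum and lipid droplets, had a lower pregnant mean, 1079 against 1357 reads (ratio 0.81, adjusted p = 0.103, in the authors' deposited table). Its log2 ratio of -0.30 was the lowest of all 38 genes. Acsl3 shares 244 bases of exon with Utp14b on its own strand, so its level is uncertain. Exons of Acsl1 overlap Gm45244 by 1039 bases and those of Acsl5 overlap Zdhhc6 by 404 bases on the opposite strand, and the limit given for Pex14 holds for them.

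Several genes lay just outside the threshold. With an adjusted p between 0.05 and 0.15 there were 7: Hadh, Acsl4, Pex14, Acadvl, Etfa and Etfdh with higher pregnant means, and Acsl3 with a lower one. What the authors' test could resolve at this level is shown by the genes with 1000 to 10000 mean reads. Of those with an absolute log2 ratio between 0.1 and 0.2, 0 of 2046 were called, between 0.2 and 0.3 1.44% of 1246, and between 0.3 and 0.4 60.4% of 680. The 13 mitochondrial genes that did not pass had log2 ratios of 0.03 to 0.26, a range in which few genes with 1000 to 10000 mean reads passed, so for those of the 13 at that level equality is not shown. Hadh, Acadsb and Hadha have more reads, and the share called was not computed for genes of their level. The plot of all genes shows the 38 against that background.

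**Figure D3:**
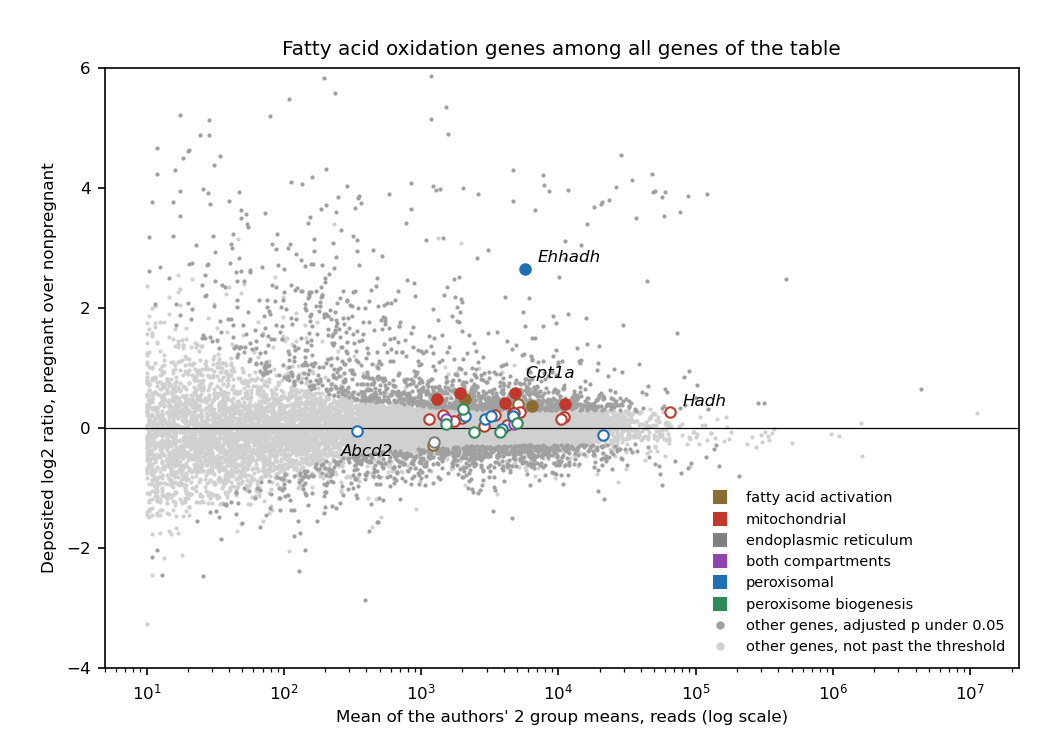
Deposited log2 ratio (vertical axis) against the mean of both group means in reads on a log scale (horizontal axis) for 15668 genes with at least 10 mean reads (14 genes lie outside the plotted range of -4 to 6), with the 38 genes as large points coloured by compartment, filled where the adjusted p was under 0.05. Ehhadh stands well above the band that holds the other 37 genes, and among well-read genes the called ones begin near an absolute log2 ratio of 0.3.

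A list of 90 other genes of fatty acid oxidation, uptake and control was examined beside the 38, and 89 were found. Of these 9 rose and 3 fell, 10.1% and 3.37%, which is near the 7.57% and 4.15% of all genes, and their median log2 ratio was 0.06. The counts of the lists that follow are to be read against the same shares. In the peroxisomal list 4 of 38 rose and 2 fell: Pecr, an enoyl-CoA reductase that lengthens chains, rose 1.97-fold (adjusted p = 5.29e-15) and the membrane protein gene Pxmp4 1.52-fold (adjusted p = 5.10e-05) in the authors' deposited table. Ech1, a dienoyl-CoA isomerase, and Mlycd, which breaks down malonyl-CoA, rose 1.33-fold and 1.27-fold (the authors' deposited table, with adjusted p = 0.00309 and 0.0194). Pex6, an ATPase that recycles the import receptor, fell to 0.81 (the authors' deposited table, with adjusted p = 0.0461).

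In the mitochondrial list 4 of 24 rose and 0 fell, with a median log2 ratio of 0.20. Ivd, an acyl-CoA dehydrogenase of leucine breakdown, rose 5.41-fold (the authors' deposited table, with adjusted p = 4.51e-75), from 13972 to 73699 mean reads. Acat1, the acetyl-CoA acetyltransferase, rose 1.37-fold, and the thioesterase genes Acot9 and Acot13 rose 1.4-fold and 1.36-fold (the authors' deposited table, with adjusted p = 3.32e-04, 0.0158 and 0.00163).

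Among 27 genes of uptake and control 1 rose and 1 fell. Fabp5, a fatty acid binding protein gene, rose 2.09-fold (the authors' deposited table, with adjusted p = 1.76e-10). Ppargc1a, a coactivator known to promote mitochondrial oxidation genes, fell to 0.53 (the authors' deposited table, with adjusted p = 0.00134), from 190 to 97 mean reads. Ppara, the receptor best known for inducing Ehhadh and Cpt1a in liver, was scarce at 60 and 53 mean reads and did not pass (ratio 0.91, adjusted p = 0.967, in the authors' deposited table). Esrra, a nuclear receptor of mitochondrial genes, stood at 1148 and 1272 mean reads, and Pdk4, a kinase gene often induced together with fatty acid oxidation, at 3008 and 2552, with ratios of 1.13 and 0.87 by the authors' deposited table (adjusted p = 0.427 and 0.890).

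Promoters were searched for AGGTCA repeated in the same direction with 1 base between the copies, allowing 2 mismatches in the 12 bases, and for TCAAGGTCA without mismatch, a sequence that contains the first motif's unit. These are the kinds of site bound by PPAR and by ERR receptors. Both strands of the 250 bases before each RefSeq start (GRCm38.p6) were read, and 32 of the 38 genes matched, with 36 starts. Abcd2, Acaa2, Crat, Decr1, Hsd17b4 and Pex19 had none. The paired motif was found in 2 of 36 windows (5.56%), against 3.24% of all 32851 windows. The extended motif was found in 0 of 36, against 0.387% of all. The 2 matches were in Etfa and Echs1, neither of which passed. The called genes had 8 windows, from 7 genes because Acaa2 had none, and 0 of the 8 held either motif. The Etfa window is shown as the example of a match, with the matched bases in capitals.
Etfa promoter, GRCm38.p6, chr9:55512244-55512493, minus strand: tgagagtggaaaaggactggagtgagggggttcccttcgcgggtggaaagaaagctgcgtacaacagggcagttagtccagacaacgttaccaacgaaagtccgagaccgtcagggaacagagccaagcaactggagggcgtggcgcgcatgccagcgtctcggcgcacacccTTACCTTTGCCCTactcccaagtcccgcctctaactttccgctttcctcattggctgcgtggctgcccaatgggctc

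The match lies on the opposite strand, 77 bases before the start, with 2 mismatches. In Echs1 the match, 83 bases before the start and also with 2 mismatches, reads AGGTCACGGGTCC. The median GC content of the 36 windows was 60.2%, against 52.4% over all windows. A match is only a description of letters, and the lack of one says nothing about which factor acts on a gene.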

How the data were processed

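RNA of islets from 3 pregnant and 3 nonpregnant samples, grouped by the labels' descriptions, was sequenced from TruSeq libraries. Per the submitters' processing notes, HTSeq 0.5.3p3, Bowtie, TopHat and TopHat2 2.0.12 were used, and the build was GRCm38. Strand use, scaling and the software of the authors' test are not given in the sources used here. Per the file headers, the authors deposited a mean read count per group, a fold change (a linear ratio), its log2, a p-value and its adjusted form (FDR) per gene, with no value per library. Group means allow no count model or other test across samples. Gene IDs on more than 1 line were counted once.

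A gene was called higher or lower at the authors' deposited adjusted p under 0.05 over all 19940 genes. Adjusting the deposited p-values anew by Benjamini-Hochberg moved none by more than 0.00203. The deposited log2 exceeded the log2 ratio of the means by a median of 0.04. Levels between genes were set on mean reads per kb of the union of GENCODE M21 exons, which covered 19256 genes. That union counts every annotated isoform, so rare long isoforms lower a gene's level. RefSeq promoter windows were matched by symbol. For 32 of 36 the bases just after the start were found in a GENCODE transcript of the gene. The adjustment of p-values and the rule for calls were tested on simulated data. Python 3.11.15, pandas 2.3.3, numpy 2.4.6, scipy 1.17.1 and matplotlib 3.10.9 were used.

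The members, lists and rules were chosen with earlier results of these data known. All 38 members were named. Of the other pathway genes, the rule named those that passed, with Ppara, Ppargc1a, Esrra, Pdk4 and a few others whatever their p, and some of these are not reported here. Cpt1b, Acaa1b, the single markers and the chromosomal neighbours were named outside that rule, after their values were seen. Samples with a shared replicate number could not be set side by side. Protein sequences were not used here.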

Additional observations from a re-analysis of the deposited data

How the results depend on the processing

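The count of 8 higher genes was 7 at an adjusted p under 0.01, 12 under 0.1 and 8 with adjustment over genes of at least 10 mean reads. It was 14 at an unadjusted p under 0.05, where 1 gene was lower. At each of the other settings 0 genes were lower. The mitochondrial median log2 ratio of 0.23 was 0.19 from the read means with a pseudocount of 0.5, 1 or 2, 0.14 scaled to total mean reads, 0.21 scaled to the total without acinar, insulin and glucagon genes, 0.24 centred on the median gene and 0.21 with Crat and Eci2. The peroxisomal median of 0.17 was 0.13, 0.08, 0.15, 0.18 and 0.15 under the same alternatives. It was 0.08 with the biogenesis genes and 0.14 without Ehhadh. A minimum of 10 mean reads changed neither median. A scaling shifts every gene alike, and a change of membership changes which gene is the middle one. The log2 ratios of the 8 called genes stayed above 0 in all 48 recalculations and moved by -0.09 to 0.02. The smallest of the 8 was 0.35 (Acsl5), so shifts of this size could not change a sign. The 48 values are therefore no test of the calls. The unadjusted threshold, the centring and the removal of Ehhadh were chosen after seeing the data. No paired analysis was possible because the table holds 1 mean per group, and leaving out single replicates was not run for the same reason. No spread between libraries is known, so what limits the precision of well-read genes was not measured.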

Other observations

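Most genes next to the 8 called genes on the chromosome did not pass, which also holds for all genes of the table. Of all genes 7.57% rose and 4.15% fell, and the small counts of neighbours are to be read against those shares. Whether neighbours rose more or less often than other genes was not tested. Among the 3 nearest protein-coding genes of the table on each side of Ehhadh, 1 of 6 rose: Tmem41a, at 1.37-fold (the authors' deposited table, with adjusted p = 0.0229). The nearest of these 6 genes on each side of Ehhadh, 2510009E07Rik and Map3k13, stood at 0.96 and 1.34 (the authors' deposited table, with adjusted p = 0.875 and 0.112). For Cpt1a, Acsl5 and Etfb 0 neighbours rose, for Slc25a20 and Acaa2 1 each, and for Acsl1 and Hadhb 2 each. Slc25a4, the mitochondrial ADP/ATP carrier gene, rose 1.32-fold (the authors' deposited table, with adjusted p = 0.00204). It is the nearest protein-coding gene of the table before Acsl1, but it ends at 46211284 and Acsl1 starts at 46471037. No neighbour of the 8 fell.

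Hadha and Hadhb, the subunit genes of the trifunctional protein, are read in opposite directions from GENCODE starts 86 bases apart on chromosome 5. The RefSeq starts used for the promoter windows lie further apart. The 85 bases between the GENCODE starts are shown because 1 gene of the pair rose and the other did not pass. No capitals are used, since no motif is marked. Per kb, Hadhb stood at 1.28 times the level of Hadha in nonpregnant and 1.52 times in pregnant islets.
Hadha to Hadhb, GRCm38.p6, chr5:30155163-30155247, plus strand: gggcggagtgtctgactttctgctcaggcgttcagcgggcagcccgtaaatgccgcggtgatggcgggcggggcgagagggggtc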
